A study of Mus musculus with 33 samples.

Results

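DNA replication and cell division genes were followed as a group of 42 named genes, out of 21844 genes measured in mouse embryonic stem cells that were differentiating as embryoid bodies. The 42 were taken by symbol after reads assigned uniquely to RefSeq transcripts had been summed per gene, and every one of them was found. They fall into 3 roles: 19 genes of origin licensing and DNA synthesis, 13 cyclins, cyclin-dependent kinases and the transcription factor gene E2f1, and 10 genes of mitosis. They were chosen by name, with earlier results of these data known.

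Dividing cells load the MCM helicase onto replication origins in G1 with the help of Orc1, Cdc6 and Cdt1, and Gmnn (geminin) blocks further loading after S phase starts. D-type cyclins with Cdk4 or Cdk6 drive the G1 step, cyclin E with Cdk2 the entry into S phase, and cyclins A and B with Cdk1 the entry into mitosis. Mouse embryonic stem cells and early epiblast cells are known for rapid cycles with a short G1 phase. E2F factors act on many S-phase promoters, and a pair of promoter elements, the CHR and the CCAAT box, is known from many mitotic genes.

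The cells were grown without serum, dispersed on day 2, then kept with or without an agent, and harvested on day 4. SB is treatment with SB-431542, an inhibitor of the type I receptors for activin, Nodal and TGF-β. SFM is the serum-free control without either agent. AA3, AA15 and AA100 are 3, 15 and 100 ng/mL of activin A, whose receptors and SMAD signal are shared with Nodal. All groups share the same stem cell differentiation. The labels used here give no genotype, and they call the source embryoid bodies.

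The dose set was sequenced by DP-seq, in which designed heptamer primers amplify the cDNA, and held 1 library each of SB, AA3 and AA100 and 2 each of SFM and AA15. AA100 and AA3 were also measured by standard RNA-seq from 20 ng of mRNA (1 AA100 and 2 AA3 libraries), by DP-seq from 50 pg with 44 primers (2 AA100 and 1 AA3 libraries) and by SMART-seq, a full-length cDNA method, from 50 pg (2 of each). Library totals were 13053122 to 15707808 counts in the dose set, 10389043 to 10738438 in standard RNA-seq, 10678979 to 13389156 in DP-seq from 50 pg and 25897343 to 30609013 in SMART-seq. Every pair but SFM is labelled as technical replicates, so p-values measure the spread between libraries, which may be technical. The second SFM library carries spiked-in yeast transcripts, and it lay far from the first: their log2 ratios had an SD of 1.64 over 10920 genes and 1.09 over 36 of the 42, against 0.37 and 0.23 between the AA15 libraries. Results that rest on SFM are therefore given with and without each of its libraries.

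The promoters of some of these genes hold the words that name the E2F, CHR and CCAAT elements, and 5 are shown because they show 3 combinations of these words, 1 of them in both Plk1 and Cdc20, and a window with none, and belong to genes whose values are described further on. RefSeq promoter windows (build GRCm38.p6, 250 bases before to 50 after the gene's start) were given for 33 of the 42 genes, and are printed 5′ to 3′ on the gene's strand with matches in capitals. Capitals mark TTTCGCGC or TTTGGCGC (E2F), TTTGAA (CHR) and CCAAT, on either strand.
Mcm6 (chr1:128359656-128359955, minus strand): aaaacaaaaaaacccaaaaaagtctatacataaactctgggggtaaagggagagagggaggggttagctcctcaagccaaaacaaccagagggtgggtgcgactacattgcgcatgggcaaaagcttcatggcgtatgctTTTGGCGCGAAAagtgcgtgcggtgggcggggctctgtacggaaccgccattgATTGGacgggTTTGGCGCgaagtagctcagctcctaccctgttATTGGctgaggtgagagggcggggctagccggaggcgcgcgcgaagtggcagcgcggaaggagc
Cdk1 (chr10:69352863-69353162, minus strand): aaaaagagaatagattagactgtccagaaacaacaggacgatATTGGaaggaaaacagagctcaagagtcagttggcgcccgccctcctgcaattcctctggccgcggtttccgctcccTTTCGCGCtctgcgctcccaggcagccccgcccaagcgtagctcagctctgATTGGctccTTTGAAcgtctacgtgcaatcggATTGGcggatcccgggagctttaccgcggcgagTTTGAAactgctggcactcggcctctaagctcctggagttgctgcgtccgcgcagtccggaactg
Cdk6 (chr5:3343643-3343942, plus strand): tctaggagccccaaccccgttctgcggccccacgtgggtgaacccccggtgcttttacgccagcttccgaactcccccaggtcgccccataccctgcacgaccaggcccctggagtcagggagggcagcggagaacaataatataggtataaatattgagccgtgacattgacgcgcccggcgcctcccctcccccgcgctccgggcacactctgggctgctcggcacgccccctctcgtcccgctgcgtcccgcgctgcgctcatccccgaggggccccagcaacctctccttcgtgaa
Plk1 (chr7:122159185-122159484, plus strand): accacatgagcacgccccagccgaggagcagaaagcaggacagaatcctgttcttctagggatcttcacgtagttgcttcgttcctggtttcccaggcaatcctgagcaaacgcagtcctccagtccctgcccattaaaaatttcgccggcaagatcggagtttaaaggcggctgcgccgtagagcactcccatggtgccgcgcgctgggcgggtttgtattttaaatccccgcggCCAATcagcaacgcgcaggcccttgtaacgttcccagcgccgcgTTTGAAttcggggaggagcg
Cdc20 (chr4:118437294-118437593, minus strand): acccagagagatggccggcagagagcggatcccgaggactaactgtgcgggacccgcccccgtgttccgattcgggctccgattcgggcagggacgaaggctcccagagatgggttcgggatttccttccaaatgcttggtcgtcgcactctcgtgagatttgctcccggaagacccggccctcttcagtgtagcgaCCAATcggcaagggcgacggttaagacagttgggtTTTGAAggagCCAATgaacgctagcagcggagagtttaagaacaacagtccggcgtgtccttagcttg
Mcm6, a subunit of the replicative helicase, has 3 E2F matches, of which 2 overlap, beginning 110, 106 and 47 bases before the start, and 2 CCAAT matches. Cdk1, the kinase of mitotic entry, has matches of all 3 kinds. Cdk6 has no match, Plk1 (a mitotic kinase) and Cdc20 (an activator of the anaphase-promoting complex) each have a CHR match and at least 1 CCAAT match.

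An E2F match stood in 7 of 15 windows of licensing and replication genes (46.7%), in 1 of 9 cyclin and kinase windows (11.1%) and in 0 of 9 mitosis windows, against 0.833% of the windows of 27025 genes. The CHR word stood in 1 of 15, 2 of 9 and 6 of 9 windows of these roles (6.67%, 22.2% and 66.7%), against 18.1% of all windows. CCAAT stood in 73.3%, 44.4% and 88.9%, against 37.9%. CHR and CCAAT stood together in 6 of 9 mitosis windows, against 7.12% of all windows, and their matches overlapped in 0 windows. A match describes letters in a window and is not evidence of binding.

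**Figure D1:**
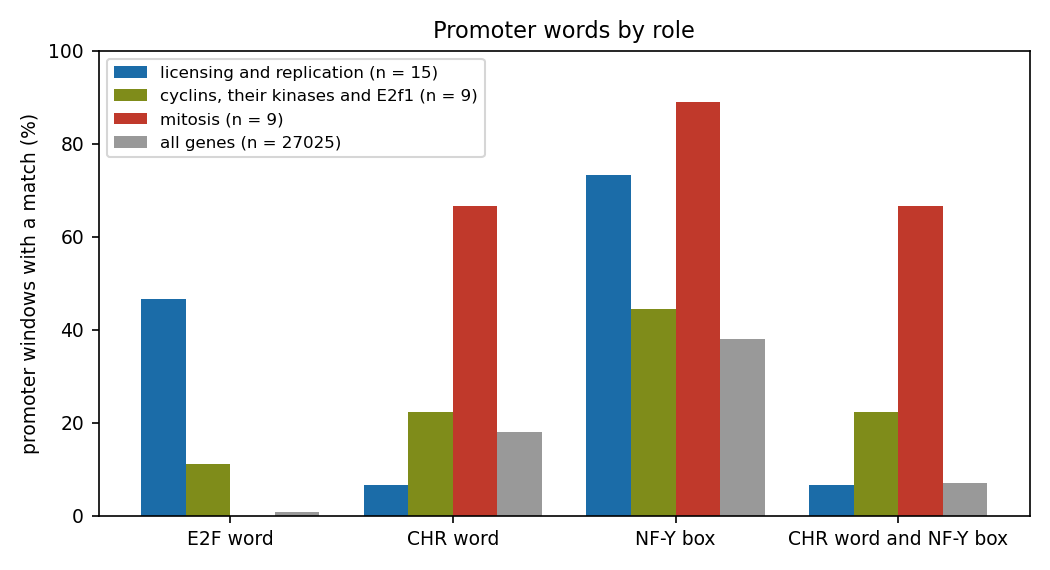
Share of promoter windows (%, vertical axis) with at least 1 match to each promoter word, by role (colours) and for the windows of all 27025 genes (grey). The E2F word was frequent in licensing and replication windows (46.7%), and CHR and CCAAT together in mitosis windows (66.7%).

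The 7 genes listed with more than 1 transcript, Cdc6, Tyms, Ccnd3, Ccne2, Cdk2, Bub1 and Birc5, had few reads. Their counts summed over all libraries of the series were 116 to 7560, with a median of 333, whereas the 35 genes listed with 1 transcript had 2379 to 469509, with a median of 53243. In standard RNA-seq of AA3 cells the median was 3.26 CPM, which is counts scaled to a fixed library size, for these 7 genes and 225 CPM for the 35. A rule that counts unique reads leaves out reads that several isoforms share, and its part in these low counts was not tested. Apart from Birc5 (7560 counts), their values are too low to describe their levels here, and their changes rest on few counts.

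The first question was whether blocking or supplying activin changed the cell division genes. Most of them gave no call between the inhibitor and the highest activin dose: 4 of 39 were called, beside 16.5% of all genes, namely Ccnd2, Cdk6, Ccnd1 and the mitotic gene Aurkb. Ccnd2 (cyclin D2) was highest under the inhibitor, and Cdk6, a kinase that D-type cyclins activate, was nearly absent there. Ccnd1 (cyclin D1) went the way of Cdk6.

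Values in the dose set are TMM-scaled CPM. Ccnd2 stood at 192 CPM in SB, 97.9 and 99.4 in SFM, 33.9 in AA3, 30.4 and 33.2 in AA15, and 48.4 in AA100. SB was thus above both SFM libraries, and every activin library was below both. By plain library totals, Ccnd2 in AA3 stood at 34.5 CPM in this set. Other DP-seq libraries of AA3, described further on, had 104 and 105 CPM from 10 ng, and 104 in the method set. Dilution libraries from 100 pg or less read lower than these. The low AA3 level of the dose set was thus not repeated from 10 ng. Cdk6 stood at 0.31 CPM in SB (5 counts), 2.17 and 0.48 in SFM (37 and 5 counts), 5.07 in AA3, 5.48 and 6.09 in AA15, and 5.31 in AA100 (84 counts). All 4 activin libraries lay above all 3 libraries without activin, and the SFM libraries lay far apart. Ccnd1 stood at 94.7 CPM in SB, 154 and 116 in SFM, 207 in AA3, 181 and 201 in AA15, and 186 in AA100. SB was below both SFM libraries, and every activin library was above both. Cdk4, the other kinase of D-type cyclins, stood at 485 CPM in SB, 496 and 1077 in SFM, 540 in AA3, 480 and 436 in AA15, and 436 in AA100, so that the second SFM library alone stood apart.

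**Figure D2:**
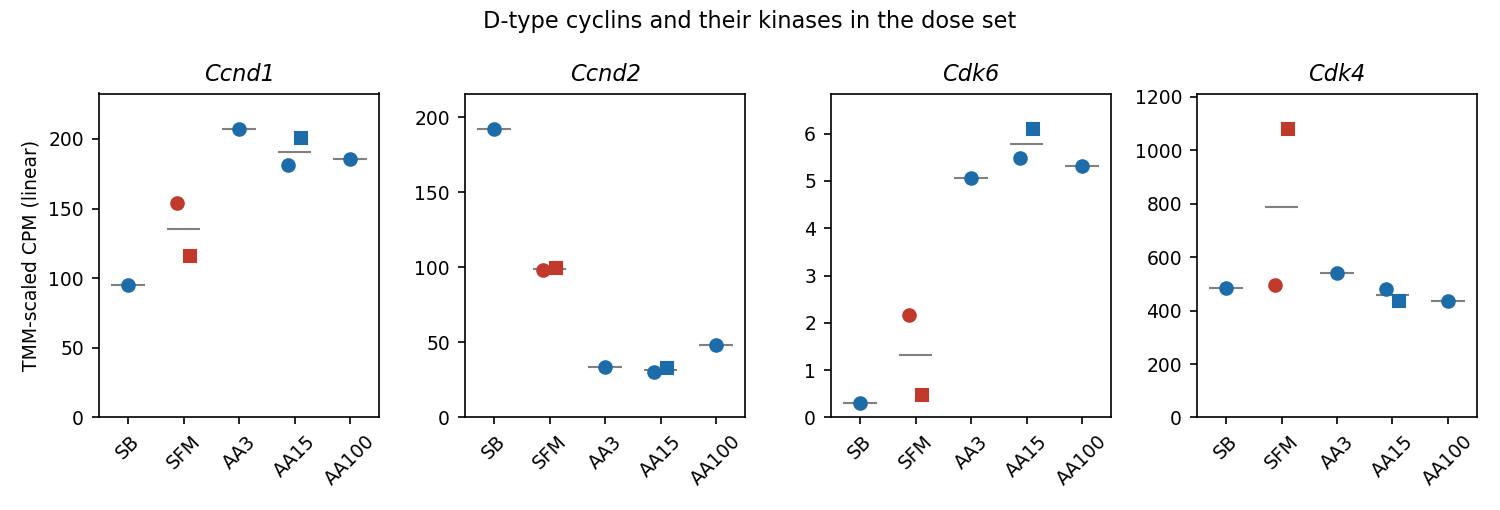
TMM-scaled CPM on linear axes from 0 for Ccnd1, Ccnd2, Cdk6 and Cdk4 in the 7 libraries of the dose set; circles are first and squares second libraries, SFM is red, and grey lines are group means. Ccnd2 falls between 30.4 and 48.4 CPM with activin, against 192 CPM in SB, and Cdk6 lies between 5.07 and 6.09 CPM with activin, against 0.31 CPM in SB.

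The change between the ends of the range was tested in the 5 libraries without SFM. In AA100 against SB, Cdk6 rose (log2 change 4.04 ± 0.61 SE, adjusted p = 1.03e-09) and Ccnd1 rose (0.96 ± 0.29, adjusted p = 0.00771) in edgeR's quasi-likelihood test. Ccnd2 fell by 2.00 ± 0.30 on the log2 scale (adjusted p = 8.98e-10). Aurkb, the aurora kinase of chromosome alignment and cytokinesis, fell by 0.98 ± 0.33 (adjusted p = 0.0237), at 9.49 CPM in AA100 and 18.5 CPM in SB. Of the 39 genes of the group that passed the filter on low counts, 2 were thus called higher and 2 lower, and 9.6% and 6.86% of all 11944 genes tested were called higher and lower. With both SFM libraries in the fit 0 of the 39 were called. With 1 of them left out, the fit again takes its spread from the AA15 pair alone, so it is no separate check of these calls. DESeq2 called Cdk6, Ccnd1 and Ccnd2 and not Aurkb (adjusted p = 0.357). Each end is 1 library, and the spread comes from the AA15 pair alone.

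The other genes of the group gave no call in AA100 against SB. Their log2 changes were from -1.06 for Gins2, a subunit of the GINS complex of the replication fork (± 0.54, adjusted p = 0.192), to 0.65 for Cdk2. The next largest were -0.97 ± 1.31 for Tyms, thymidylate synthase (adjusted p = 0.711), and -0.68 ± 0.29 for Cdc20 (adjusted p = 0.0982). The median over the 39 was -0.32, against -0.0046 over all genes tested, and 28 of 39 were below 0. By role the median was -0.41 for 18 licensing and replication genes, 0.01 for 12 cyclins and kinases and -0.31 for 9 mitosis genes. The helicase subunits were mostly a little lower in AA100. Mcm5 stood at 67.2 CPM in AA100 and 67.6 in SB, Mcm2 at 236 in AA100 and 253 in SB, Mcm7 at 512 in AA100 and 633 in SB, Mcm3 at 45.8 in AA100 and 58.8 in SB, and Mcm4 at 743 in AA100 and 937 in SB. Mcm6 stood at 458 CPM in AA100 and 370 in SB, the other way. Top2a, topoisomerase II, stood at 1756 CPM in AA100 and 1650 in SB, and Mki67, the gene of the proliferation marker Ki-67, at 751 in AA100 and 792 in SB.

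Markers of cell types moved in the same comparison. The summed level of 11 neural markers was 78.6 CPM in AA100 and 731 CPM in SB, with Dcx at 0 in both and Neurog2 at 0 in AA100. That of 9 epiblast markers was 2372 CPM in AA100 and 127 in SB, with Esrrb at 0 in both, and that of 10 primitive streak and endoderm markers was 2006 CPM in AA100 and 11.7 in SB, with Eomes at 0 in SB. In AA100 against SB, 7 of 10 neural markers tested were called lower and 1 higher, 4 of 8 epiblast markers higher and 2 lower, and 10 of 10 streak and endoderm markers higher. The part of these cell types in the values of Ccnd2, Cdk6, Ccnd1 and Aurkb was not tested. Fewer cells of a type and less RNA per cell cannot be told apart in such samples.

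Against the SFM control, 0 of 12180 genes were called in each of the 4 comparisons (0%), for SB, AA3, AA15 and AA100. At an unadjusted p under 0.05 there were 179, 197, 702 and 541 genes, of which 0, 0, 1 and 0 were among the 39, and DESeq2 called 17, 14, 168 and 106 genes. That member was Ccnd2 in AA15 against SFM (-1.63 ± 0.46, adjusted p = 0.768). The median log2 change of the 39 was 0.20 for SB, -0.03 for AA3, 0.10 for AA15 and -0.12 for AA100, against -0.05, -0.04, 0.01 and -0.02 over all genes. These comparisons share the SFM libraries.

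The SFM pair set the width of these tests. Ccna2 (cyclin A2) had 1053 and 5398 CPM in SFM and 1119 to 1508 CPM in the other 5 libraries. Rrm2, a subunit of ribonucleotide reductase, had 623 and 64.4 CPM in SFM and 619 to 898 in the others. Plk1 had 45.8 and 10.1 CPM in SFM and 32.2 to 39.8 in the others. In each of these the first SFM library lay near the treated ones and the second did not.

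Without the second SFM library, Ccnd2 was called in all 4 comparisons. It rose in SB (0.96 ± 0.28, adjusted p = 0.0267) and fell in AA3 by 1.54 ± 0.29 (adjusted p = 4.52e-05), in AA15 by 1.62 ± 0.24 (1.07e-08) and in AA100 by 1.02 ± 0.29 (0.00603). Cdk6 fell in SB by 2.77 ± 0.67 (adjusted p = 0.00411) and rose in AA15 by 1.42 ± 0.40 (0.00668) and in AA100 by 1.29 ± 0.44 (0.0369). Aurkb, at 20.7 and 7.33 CPM in SFM, fell in AA100 by 1.13 ± 0.33 (0.00934), and without the first library instead its change in AA100 was 0.37 (0.381), with calls as higher in SB (1.33, 4.18e-04) and AA15 (0.94, 0.00594). These make 1, 0, 1 and 1 members higher and 1, 1, 1 and 2 lower in SB, AA3, AA15 and AA100, while 4.12%, 5.27%, 13% and 12.9% of 12076 genes were called in either direction.

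Without the first SFM library instead, 13, 11, 14 and 11 members were higher and 7, 9, 8 and 9 lower in SB, AA3, AA15 and AA100, while 58.4%, 57.3%, 64.7% and 59.2% of 12080 genes were called in either direction. Ccnd2 was again among them in all 4, at 0.94 ± 0.29 in SB (adjusted p = 0.00267), -1.56 ± 0.30 in AA3 (8.43e-07), -1.65 ± 0.24 in AA15 (7.67e-11) and -1.04 ± 0.29 in AA100 (9.47e-04). Ccnd1 was higher in AA3, AA15 and AA100, by 0.83, 0.71 and 0.67 on the log2 scale. Cdk6 was higher in the same 3 groups, by 3.4, 3.6 and 3.4. In SB, Cdk6 stood at 0.31 CPM, near the second SFM library, so its fall in SB rests on the first SFM library. Here too the spread comes from the AA15 pair alone, and these calls do not cover the spread between SFM libraries. Neural markers summed to 446 and 891 CPM in SFM, epiblast markers to 404 and 267, and streak and endoderm markers to 145 and 72.7, with Dcx and Esrrb at 0 in both and Map2 in the second.

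**Figure D3:**
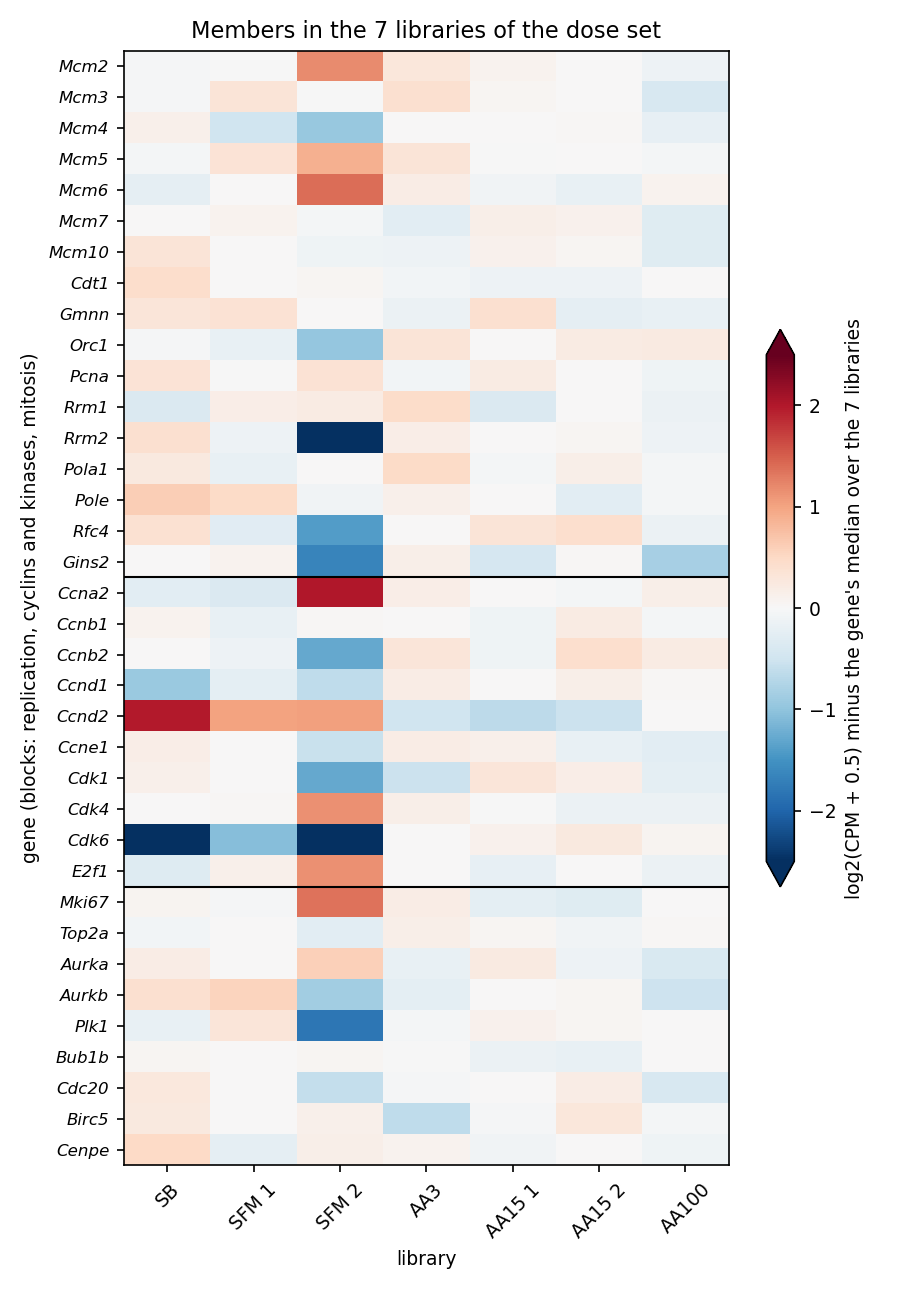
Each cell is log2(CPM + 0.5) in 1 library of the dose set (columns) minus the median of that gene over the 7 libraries, for the members shown in rows, with black lines between the 3 roles; red is above and blue below the median, and the scale is capped as the arrows show. The second SFM library is the column that stands apart, and Ccnd2 and Cdk6 are the rows with opposite ends in SB and the activin libraries.

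A trend over SFM, AA3, AA15 and AA100 as equal steps called 18 of 12102 genes higher (0.149%) and 30 lower (0.248%), 0.397% in all, and 0 of 39 members. Without the first SFM library it called 2 genes and without the second 693, of which 0 were members in either case. The largest member slopes were 0.72 ± 0.31 log2 units per step for Cdk6 (adjusted p = 0.401) and -0.44 ± 0.18 for Ccnd2 (0.392), and Ccnd2 was in fact lower in AA15 than in AA100. In AA15 against SFM, where both groups had 2 libraries, 12 of 39 members were higher and 9 lower with no overlap between libraries, beside 23.4% and 21.3% of all genes.

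AA100 against AA3 was compared first within the dose set, where 4.96% of 11944 genes (2.97% higher, 1.98% lower) and 0 of 39 members were called. At an unadjusted p under 0.05 there were 3 members of 39, beside 14.7% of all genes. The log2 changes of the 39 ran from -1.81 ± 1.19 for Tyms (adjusted p = 0.546) and -1.21 ± 0.53 for Gins2 (0.22) to 0.66 for Cdk2, and 30 of 39 were below 0, with a median of -0.15 against 0.01 over all genes. Gins2 had 1.39 CPM in AA100 (22 counts) and 3.26 CPM in AA3 (52 counts).

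The same pair of doses was then measured by 3 methods. Cdk4 was lower in AA100 in each of them and was called in each method's own fit. Cdk4 had 563 CPM in AA100 and 780 and 792 CPM in AA3 by standard RNA-seq. By DP-seq from 50 pg it had 391 and 395 CPM in AA100 and 663 in AA3, and by SMART-seq 1079 and 1102 CPM in AA100 and 1675 and 1676 in AA3. The groups did not overlap in any method. The log2 changes were -0.48 ± 0.02 (adjusted p = 1.29e-96), -0.76 ± 0.19 (0.0266) and -0.62 ± 0.05 (0.0137), and in the dose set, at 436 CPM in AA100 and 540 in AA3, -0.30 without a call.

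Standard RNA-seq called 62.3% of 12605 genes, so a call there is common: 9 of 42 members were higher and 26 lower, while 31.1% of all genes were higher and 31.1% lower. Past 2-fold, 0 members were higher and 5 lower (Ccnd2, Rfc4 and the low-count genes Tyms, Ccnd3 and Bub1), beside 6.66% and 6.45% of all genes. This fit takes its spread from the 2 AA3 libraries alone. In a joint fit of the 10 libraries of the 3 methods, 1.91% of 14072 genes were called, and 0 members were higher and 6 lower: Ccnb1, Ccnd2, Cdk1, Cdk4, Pcna and Rfc4. With either AA3 library of standard RNA-seq left out of that fit, 47 or 53 genes were called, and of the 6 Rfc4 alone kept its call (adjusted p = 0.0429 or 0.0386).

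Among licensing and replication genes in standard RNA-seq, 2 of 19 were higher and 14 lower. Rfc4, a subunit of the clamp loader, had 25.3 CPM in AA100 and 68.1 and 66.7 CPM in AA3, and fell by 1.41 ± 0.09 on the log2 scale (adjusted p = 4.58e-57). Pcna, the sliding clamp, had 462 CPM in AA100 and 656 and 643 in AA3. Cdt1, the licensing factor that geminin binds, had 158 CPM in AA100 and 110 in both AA3 libraries, and Gmnn, geminin, had 63.5 CPM in AA100 and 100 and 103 in AA3. The licensing factor and its inhibitor thus differed in opposite directions in this 1 AA100 library, by 0.52 and -0.68 on the log2 scale. The joint fit called neither of them in standard RNA-seq. By DP-seq, Cdt1 had 13.9 and 17.3 CPM in AA100 and 14.8 in AA3, and the groups overlapped. The helicase subunits moved little: Mcm2, Mcm3, Mcm6 and Mcm7 fell by 0.06 to 0.30, and Mcm4 and Mcm5 gave no call. Mcm10, a replication initiation factor outside the helicase ring, fell by 0.29. Tyms fell by 1.61 ± 0.42 (adjusted p = 2.62e-04), at 1.07 CPM in AA100 and 2.78 and 3.83 CPM in AA3.

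Among the cyclins and kinases, 4 of 13 were higher and 6 lower. Ccnd2 had 37.5 CPM in AA100 and 175 and 173 in AA3, and fell by 2.21 ± 0.06 (adjusted p = 5.27e-258). The low-count genes Bub1 (-2.22 ± 0.58, adjusted p = 2.86e-04) and Ccnd3 (-1.87 ± 0.47, 2.01e-04) also fell. Cdk1 had 136 CPM in AA100 and 222 and 226 in AA3, and Ccnb1, its cyclin partner, 304 in AA100 and 462 and 461 in AA3. Ccna2 had 376 CPM in AA100 and 301 and 298 in AA3, and Ccne1 (cyclin E1) 166 in AA100 and 119 and 123 in AA3. The joint fit called Cdk1 and Ccnb1 (adjusted p = 0.0118 and 0.0402) and not Ccna2 and Ccne1 (0.426 and 0.856). In that fit Ccna2 had log2 changes of -0.24 in DP-seq and -0.30 in SMART-seq, opposite in sign to standard RNA-seq. Ccne1 had -0.31 in DP-seq, also opposite in sign, and -0.04 ± 0.21 in SMART-seq, which is near 0. Its SMART-seq means were 38.6 CPM in AA100 and 37.6 in AA3.

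Among mitosis genes, 3 of 10 were higher and 6 lower. Plk1 had 336 CPM in AA100 and 208 in both AA3 libraries, and rose by 0.69 ± 0.03 (adjusted p = 3.98e-95). Aurka, the aurora kinase of spindle poles, had 202 CPM in AA100 and 148 and 143 in AA3. Cdc20 had 187 CPM in AA100 and 289 and 302 in AA3, Bub1b (a checkpoint kinase that acts on Cdc20) 211 in AA100 and 299 and 295 in AA3, and Cenpe (a kinetochore motor) 170 in AA100 and 264 and 243 in AA3. The joint fit called 0 mitosis genes in standard RNA-seq (adjusted p from 0.21 for Plk1 and 0.317 for Cdc20 to 1 for Cenpe). In DP-seq the joint fit gave log2 changes of 1.68 for Cdc20 and 0.54 for Bub1b, opposite in sign to standard RNA-seq.

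DP-seq from 50 pg called 3.43% of 11631 genes. Of 37 members, Cdc20 was higher, and Pcna and Cdk4 were lower, beside 2.27% of all genes higher and 1.16% lower. Cdc20 had 106 and 142 CPM in AA100 and 38.9 in AA3 (log2 change 1.67 ± 0.34, adjusted p = 0.0053), which is the opposite of its direction in standard RNA-seq. Pcna had 736 and 694 CPM in AA100 and 1257 in AA3 (-0.81 ± 0.18, adjusted p = 0.0084). Gmnn had 21.6 and 26.8 CPM in AA100 and 54.6 in AA3 (-1.17 ± 0.44, adjusted p = 0.159), and Cenpe 121 and 148 in AA100 and 216 in AA3 (-0.69 ± 0.26, 0.162). Cdk6 had 3.66 and 6.44 CPM in AA100 and 12.2 in AA3 (-1.26 ± 0.88, 0.543). The joint fit added Gmnn to these calls (adjusted p = 0.0179), beside 1.29% of 14072 genes higher and 1.06% lower.

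SMART-seq called 1.35% of 11453 genes. Of 40 members, 0 were higher, and Cdk1 and Cdk4 were lower, beside 0.786% and 0.568% of all genes. Cdk1 had 435 and 457 CPM in AA100 and 687 and 650 in AA3 (-0.58 ± 0.07, adjusted p = 0.032). Ccnd1 had 24.8 and 34.8 CPM in AA100 and 56.2 and 50.8 in AA3 (-0.84 ± 0.25, 0.177). Pola1, the catalytic subunit of the polymerase that starts DNA strands, had 21.2 and 10.4 CPM in AA100 and 41.2 and 26.5 in AA3 (-1.10 ± 0.45, 0.302). Rrm2 had 689 and 597 CPM in AA100 and 494 and 454 in AA3 (0.44 ± 0.10, 0.108). Aurkb had 80.8 and 127 CPM in AA100 and 52.5 and 43.7 in AA3 (1.11 ± 0.26, 0.123), and Plk1 140 and 122 in AA100 and 93.6 and 70.1 in AA3 (0.68 ± 0.19, 0.152). The libraries of these 6 genes did not overlap between the doses, as for 8 members higher and 14 lower of 40, beside 24.3% and 25.1% of all genes. Leaving out any 1 SMART-seq library left 0 members called. The joint fit called 6 lower: Ccnd1, Ccnd2, Cdk1, Cdk4, Mcm4 and Pcna, beside 1.86% of 14072 genes higher and 2.21% lower.

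The measurements of the same doses were also set side by side for Ccnd2. It had 72.1 and 48.5 CPM in AA100 and 104 in AA3 by DP-seq from 50 pg (-0.79 ± 0.34, adjusted p = 0.243), and 7.0 and 7.8 in AA100 and 19.6 and 25.9 in AA3 by SMART-seq (-1.62 ± 0.36, 0.108). In the dose set it was 0.52 higher on the log2 scale in AA100, without a call. The dose set change minus the standard RNA-seq change was 2.73 ± 0.47 (adjusted p = 0.0615 in a joint fit of 15 libraries), and minus the DP-seq change it was 1.29 (0.332). Neither difference passed the threshold. Of 14699 genes, 0.327% did for standard RNA-seq (0.218% higher and 0.109% lower in the dose set) and 0.361% for DP-seq (0.218% higher and 0.143% lower). Between the 3 methods, in the joint fit of 10 libraries, the change differed for 2 members. DP-seq differed from standard RNA-seq for 0.739% of 14072 genes (0.334% higher, 0.405% lower), among them Cdc20, and SMART-seq from standard RNA-seq for 0.853% (0.249% higher, 0.604% lower), among them Rfc4, both members with the higher change in the method from 50 pg. DP-seq differed from SMART-seq for 0.0213% (0.0142% higher, 0.00711% lower) and 0 members. Cdk1, called lower by standard RNA-seq and SMART-seq, had 680 and 675 CPM in AA100 and 705 in AA3 by DP-seq, and 672 in AA100 and 548 in AA3 in the dose set.

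**Figure D4:**
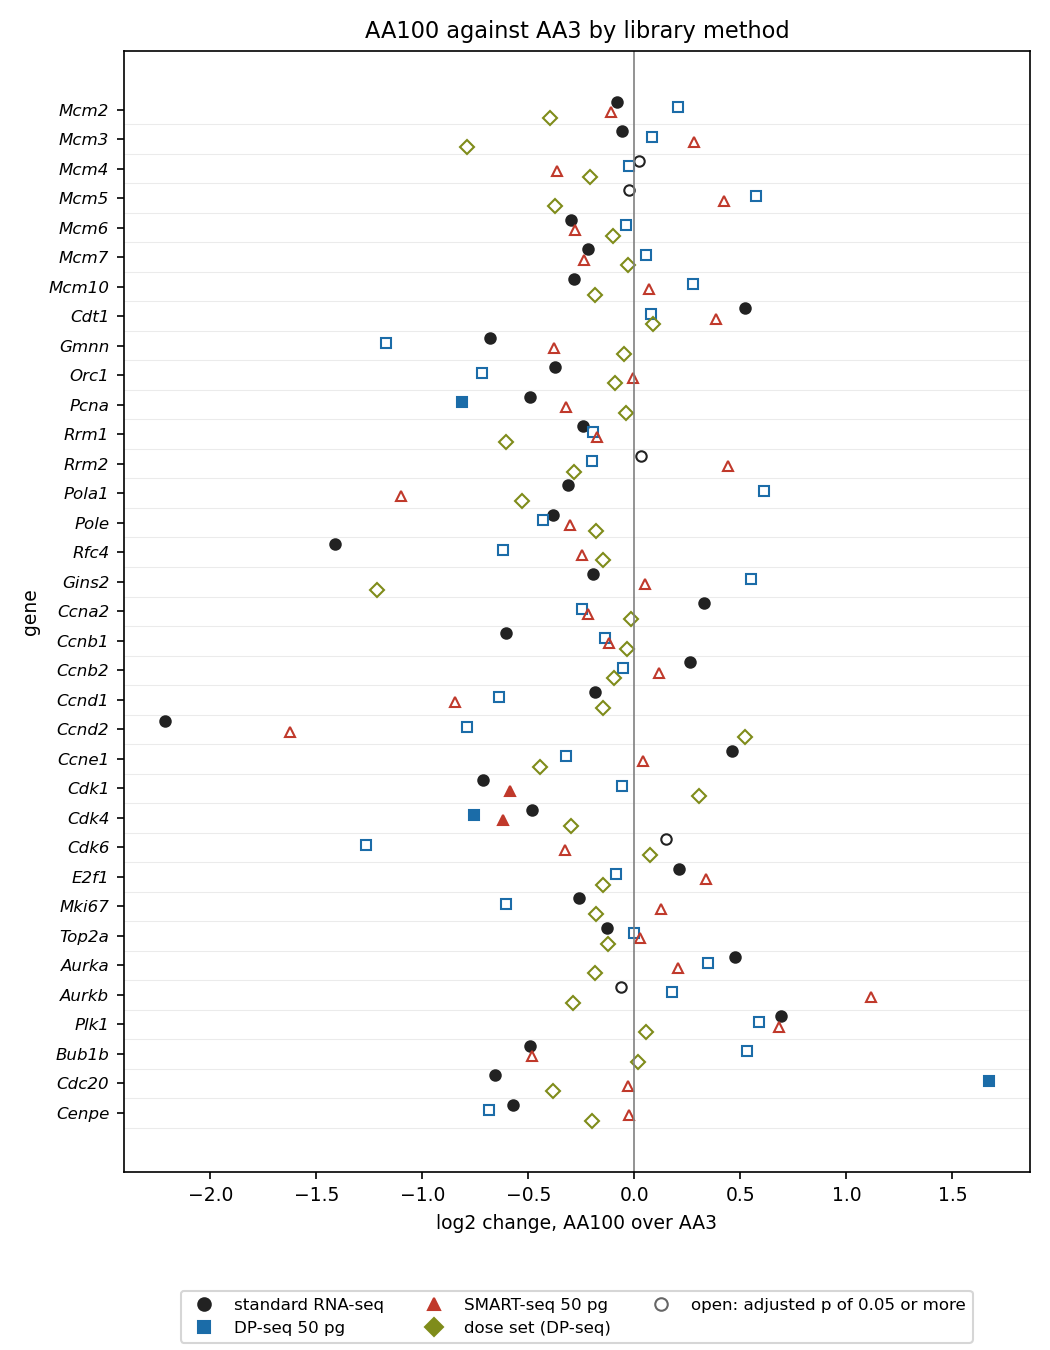
Log2 change of AA100 over AA3 (horizontal axis) for the genes listed with 1 transcript (rows), by standard RNA-seq (black circles), DP-seq from 50 pg (blue squares), SMART-seq from 50 pg (red triangles) and the dose set (green diamonds); filled symbols have an adjusted p under 0.05 in the fit of that method. Cdk4 lies left of 0 in all 4, and Cdc20 lies at -0.66 by standard RNA-seq and 1.67 by DP-seq.

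Of 37 members measured by all 3 methods, 14 were lower in AA100 by each (37.8%) and 4 higher by each (10.8%), beside 19% and 20.9% of 10092 genes. The 3 methods share no library, and the labels used here do not say whether they started from 1 RNA preparation. The 4 higher were Aurka, Birc5, Cdt1 and Plk1. The 14 lower held Pcna, Rfc4, Gmnn, Orc1, Mcm6, Pole, Rrm1 and the low-count gene Tyms of the replication role, Ccnb1, Ccnd1, Ccnd2, Cdk1 and Cdk4 of the cyclins and kinases, and Cenpe of mitosis. With the dose set as a further measurement, 12 were lower (32.4%) and 3 higher (8.11%), beside 9.68% and 11.4% of 9784 genes. These counts rest on sign alone, and some changes were near 0, such as Orc1 by SMART-seq (means of 44.7 CPM in AA100 and 44.9 in AA3). Most of the changes gave no call outside standard RNA-seq. The median log2 change of the members was -0.21 in standard RNA-seq, -0.06 in DP-seq and -0.07 in SMART-seq, against -0.01, 0.07 and 0.01 over all genes.

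Cell type markers also moved between these doses. Streak and endoderm markers summed to 2198 CPM in AA100 and 1513 and 1491 in AA3 by standard RNA-seq, to 2904 and 2588 in AA100 and 1004 in AA3 by DP-seq, and to 1403 and 1475 in AA100 and 519 and 597 in AA3 by SMART-seq. Epiblast markers summed to 1291 to 1920 CPM over the 5 AA100 libraries and 727 to 1172 over the 5 AA3 libraries, and neural markers to 364 to 643 in AA100 and 340 to 483 in AA3. Dcx was at 0 in all 10, Pax6 in the 4 SMART-seq libraries, and Esrrb in all but the AA100 library of standard RNA-seq. In standard RNA-seq 7 of 10 streak and endoderm markers were called higher and 2 lower, 7 of 8 epiblast markers higher and 1 lower, and 1 of 7 neural markers higher and 2 lower, beside 31.1% of all genes in each direction. Their part in the changes of the cell division genes was not tested.

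The share of a library's counts that fell on the 42 genes was lower in AA100 than in AA3 in each set. It was 0.976% in AA100 and 1.14% and 1.13% in AA3 by standard RNA-seq, 1.00% and 1.08% in AA100 and 1.20% in AA3 by DP-seq, and 0.755% and 0.740% in AA100 and 0.810% and 0.823% in AA3 by SMART-seq. In the dose set it was 1.21% in SB, 1.16% and 1.28% in SFM, 1.19% in AA3, 1.15% and 1.09% in AA15, and 1.08% in AA100. Wilson 95% intervals, which cover counting error alone, spanned 1.076% to 1.086% for AA100 and 1.201% to 1.212% for SB in the dose set. The AA15 libraries, which are technical replicates, differed by more than such an interval.

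Further genes of the pathway were read from 3 lists. In AA100 against SB, 0 of 33 further replication genes tested were higher and 3 lower, with a median log2 change of -0.46, beside 9.6% of all genes higher and 6.86% lower. The 3 were Rpa3, a subunit of the single-strand binding protein (-0.95 ± 0.33, adjusted p = 0.0268), Prim2 of the primase (-0.83 ± 0.30, 0.0328) and Pole2 of a replicative polymerase (-0.79 ± 0.29, 0.0457). Of 31 further mitosis genes 0 were higher, and 1 was lower, the kinetochore gene Knl1 (-0.86 ± 0.30, 0.0294). Of 23 CDK regulators and G1 control genes 0 were higher and 2 lower, Rb1 (-1.29 ± 0.30, 1.98e-04), the retinoblastoma gene that D-type cyclin kinases act on, and Tfdp1 (-0.73 ± 0.27, 0.0483), a partner of E2F factors. Prim2, Pole2, Rb1 and Tfdp1 were chosen for this text after their values were seen. Against SFM and in the trend, 0 genes of the 3 lists were called.

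In AA100 against AA3 by standard RNA-seq, 13 of 37 further replication genes were higher and 14 lower, 10 of 33 further mitosis genes were higher and 15 lower, and 9 of 28 CDK regulators were higher and 8 lower, beside 31.1% of all genes in each direction. Medians were -0.02, -0.06 and -0.08. Dut, which removes dUTP, fell by 1.52 ± 0.24 and Orc4, an origin recognition subunit, rose by 1.19 ± 0.19. Kif20a, a motor of cytokinesis, fell by 1.76 ± 0.27, and the checkpoint kinase gene Ttk fell by 1.55 ± 0.18. Myc rose by 2.91 ± 0.71 (adjusted p = 1.11e-04), and Cdkn1c, an inhibitor of cyclin-dependent kinases, fell by 2.41 ± 0.93 (0.018). DP-seq called 2 of 22 CDK regulators higher, both E2F family genes: E2f8 (1.94 ± 0.23, adjusted p = 1.63e-05), at 1.12 ± 0.06 in standard RNA-seq, and E2f4 (1.10 ± 0.31, 0.0482), at 1.31 ± 0.03 in standard RNA-seq. DP-seq called 0 of 34 further replication and 0 of 31 further mitosis genes, and SMART-seq and the dose set called 0 genes of the 3 lists.

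The method also set the level at which a gene was read. In AA3, the DP-seq level from 50 pg was at least 4-fold above the standard RNA-seq level for 1 of the 42 genes and at least 4-fold below for 12, with a median log2 ratio of -0.89. SMART-seq was at least 4-fold above for 3 and below for 12, with a median of -1.54. These are CPM of a gene in 2 methods with no correction for length. Ccna2 had 1694 CPM by DP-seq, 62 by SMART-seq and 301 by standard RNA-seq. Gins2 had 3.18 CPM by DP-seq, 257 by SMART-seq and 84.0 by standard RNA-seq. Mki67 had 628 CPM by DP-seq, 54.0 by SMART-seq and 844 by standard RNA-seq.

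The dilution series gives the levels of the group from decreasing amounts of mRNA. It held 2 DP-seq libraries of AA3 mRNA at each amount, with 427556 to 10387268 counts. The libraries at 1 pg had the fewest counts, 427556 and 448933, so a low amount of mRNA and low depth cannot be told apart there. Of 35 members with at least 10 CPM at 10 ng, 12 and 6 lay within 2-fold of their 10 ng mean in the libraries at 1 pg, 15 and 17 at 10 pg, 22 and 24 at 50 pg, 22 and 22 at 100 pg, and all 35 in both libraries at 1 ng. Members at 0 counts numbered 8 and 9 of 42 at 1 pg and 5 and 2 at 10 ng.

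Single genes departed in opposite directions. Ccna2 had 2858 and 3617 CPM at 1 pg, 1839 and 1742 at 50 pg, and 740 and 657 at 10 ng. Ccnd2 had 2.34 and 4.46 CPM at 1 pg (1 and 2 counts), 66.5 and 53.0 at 50 pg, and 104 and 105 at 10 ng. Top2a had 872 and 1214 CPM at 1 pg, 1379 and 1383 at 50 pg, and 1669 and 1690 at 10 ng. Both libraries of an amount moved the same way in these genes, whereas Ccnd1 had 498 and 40.1 CPM in the 2 libraries at 1 pg. All 12 of these libraries are of AA3, so the activin dose does not differ among them.

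**Figure D5:**
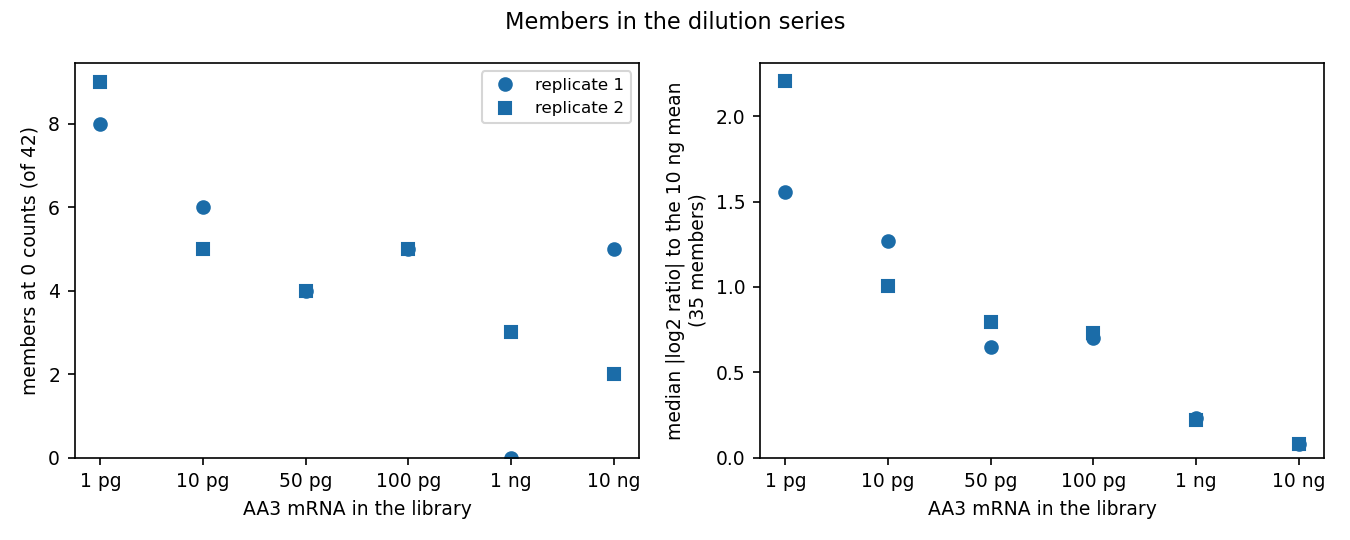
The number of members at 0 counts (left) and the median absolute log2 ratio to the 10 ng mean over 35 members (right), against the amount of AA3 mRNA in the library; circles are first and squares second libraries. The ratio is 1.55 and 2.21 at 1 pg, 0.65 and 0.80 at 50 pg, and 0.08 in both libraries at 10 ng. Both 10 ng libraries are part of the mean they are set against, so their ratio is small by construction.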

How the data were processed

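The authors deposited 1 table per library with unique read counts per RefSeq transcript, per the file headers. Values are whole numbers except 15 in all, and such deposited tables were treated as estimated counts and rounded. The aligner, counting rule, strand setting and genome build were not given in the sources used here. Overlapping or antisense genes and near-identical copies therefore cannot be told apart. Gene symbols for 25853 of 26566 transcripts came from RefSeq's gene list and for 154 from GENCODE, while 559 kept their identifier.

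Counts were summed per gene and tested with edgeR 4.0.16 in R 4.3.3: filterByExpr by group (minimum count 10, minimum total 15), TMM scaling, quasi-likelihood fits over all genes, and Benjamini-Hochberg adjustment over all genes tested at 0.05. Values after ± are standard errors of log2 changes. Comparisons with SFM used the 7 dose set libraries, the other dose set comparisons the 5 without SFM, and each method its own libraries. Differences between methods came from joint fits of 10 libraries, those with the dose set from 15. Single libraries are assumed to vary like the replicated groups in their fit, whose residual degrees of freedom number 1 to 5. Cell type lists were also read as summed CPM. CPM in the dilution series and between methods use plain library totals.

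The members, gene lists and tests were chosen with earlier results of these data known. In each comparison, the plan named the 2 members per role and 2 genes per pathway list with the largest absolute change. Not all of these are printed with their error, and those left out gave no call. Other members are mostly given by values, and genes outside the plan mostly where called. Of the pathway lists, 39 of 39 further replication genes, 34 of 35 further mitosis genes and 30 of 30 CDK regulators were found. Alternatives were DESeq2 1.42.0, no filter, other library sets, each replicate left out and a replicate block. Fits were tested on simulated data. Intervals on shares are Wilson intervals from scipy 1.17.1.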

Additional observations from a re-analysis of the deposited data

Results flagged for a closer look

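For 2 genes the change between AA100 and AA3 differed between methods by a test of the difference itself, in the joint fit of 10 libraries (0.739% of 14072 genes differed between DP-seq and standard RNA-seq, and 0.853% between SMART-seq and standard RNA-seq). Cdc20 had a log2 change that was 2.34 ± 0.32 greater in DP-seq from 50 pg than in standard RNA-seq (adjusted p = 0.0316): it was higher in AA100 in both DP-seq libraries, at 106 and 142 CPM in AA100 and 38.9 CPM in AA3, and lower in the 1 standard library, at 187 CPM in AA100 and 289 and 302 CPM in AA3. By SMART-seq, Cdc20 had 82.4 and 97.9 CPM in AA100 and 91.8 and 92.4 CPM in AA3, and the groups overlapped. In the AA3 dilution series Cdc20 had 67.7 and 60.1 CPM at 50 pg and 96.8 and 78.3 CPM at 10 ng, so the 38.9 CPM of the AA3 library in the method set is below these 4 AA3 libraries.

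Rfc4 had a log2 change that was 1.09 ± 0.17 greater in SMART-seq than in standard RNA-seq (adjusted p = 0.0397). It stood at 303 and 262 CPM in AA100 and 328 and 343 CPM in AA3 by SMART-seq, and at 25.3 CPM in AA100 and 68.1 and 66.7 CPM in AA3 by standard RNA-seq. Rfc4 was lower in AA100 by both methods, and its level in AA3 was 2.27 higher on the log2 scale by SMART-seq than by standard RNA-seq.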

How the results depend on the processing

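With DESeq2 in place of edgeR the genes called against SFM were 17 for SB, 14 for AA3, 168 for AA15 and 106 for AA100. The dose trend called 497, and AA100 against AA3 163 in the dose set and 4431 in standard RNA-seq. AA100 against SB called 824 genes (6.9%), among them the members Cdk6 and Ccnd1 as higher and Ccnd2 as lower. SMART-seq called 1135 (members: 4 higher and 5 lower), beside 5.02% of 11453 genes higher and 4.89% lower. Leaving out 1 SFM library gave 498 to 7055 calls for SB, 637 to 6921 for AA3, 1570 to 7815 for AA15 and 1560 to 7156 for AA100. Members called were then 1 to 13 higher and 1 to 7 lower for SB, 0 to 11 and 1 to 9 for AA3, 1 to 14 and 1 to 8 for AA15, and 1 to 11 and 2 to 9 for AA100. Of 39 members, 12 for SB, 14 for AA3, 13 for AA15 and 16 for AA100 had log2 changes against SFM of opposite sign without the first and without the second SFM library. Among them were Ccna2 (-2.28 and 0.077 for SB, -1.87 and 0.49 for AA100), Mki67 (-1.29 and 0.10 for SB, -1.18 and 0.21 for AA3, -1.37 and 0.028 for AA100), Plk1 (1.94 and -0.22 for AA15) and Rrm2 (3.26 and -0.014 for AA100). The dose trend called 2 and 693 genes without the first and second SFM library, 0 without either AA15 library, and 18 with log2(dose + 1) as its scale. With all 7 libraries, AA100 against SB called 0 genes (members: 0 higher, 0 lower) and AA100 against AA3 0. Leaving 1 SFM or AA15 library out of these fits (chosen after seeing the data) left the spread to the other pair alone. The same holds for the comparisons with SFM above. The joint fit of the 10 method libraries called 269 genes (1.91%) in standard RNA-seq (members: 0 higher, 6 lower) and 573 (4.07%) in SMART-seq (6 lower). Leaving out 1 AA3 library in that fit, an alternative added after seeing the data, gave 47 and 53 (0 higher, 1 lower) in standard RNA-seq. Leaving out the second AA100 library in DP-seq gave 2 members higher and 4 lower. The share called among the 13800 genes tested there is not given, so this member count has no background to be read against. These fits leave 1 library per dose in the method concerned, so their counts carry no spread from within it. SMART-seq called 250 genes without a filter and 11 to 18 with 1 library left out (members lower: 0). Same-numbered libraries did not deviate together (correlation -0.227 for AA15 with SFM, -0.0191 in SMART-seq), so the numbers do not pair them. The replicate block left 0 genes in the trend and 54 in SMART-seq (1 member lower). The causes were not tested. Of the other counts under an alternative, 157 stayed within 1.5 times their main value. For single genes and the members' medians, 517 values stayed the same, in direction and side of the threshold or within the spread between replicates. A further 7 changed direction, 27 lost and 35 gained a call, and 16 moved by more than that spread.

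With 1 or 2 libraries a group, mostly technical, the tests do not reach differences between cultures. Members listed with several transcripts, Birc5 apart, had few counts.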

Other observations

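Libraries of AA3 made with other primers gave other readings of the same genes. With 3 primer sets designed to suppress ribosomal transcripts, 1 library each, the share of counts on the 42 genes was 0.961%, 1.94% and 1.20%. Mcm6 had 81.9, 6234 and 306 CPM with primer sets 1, 2 and 3, Rrm1 261, 214 and 3072 CPM, Top2a 1131, 200 and 4795 CPM, and Ccnd2 96.2, 1487 and 29.9 CPM. Cdk4 had 335, 612 and 4.65 CPM. In the paired-end DP-seq library from about 100 pg of AA3 mRNA, Mcm6 had 221 CPM, Rrm1 458, Top2a 1675, Ccnd2 89.5 and Cdk4 335 CPM. Each of these is 1 library, so no spread between libraries can be given.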
